A study of Mus musculus with 18 samples.

Results

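The genes described here encode 10 enzymes that make bile acids from cholesterol in the liver, out of 37303 genes in the deposited expression table. They were chosen by gene symbol (Cyp7a1, Cyp8b1, Cyp27a1, Cyp7b1, Akr1d1, Hsd3b7, Baat, Slc27a5, Acox2 and Amacr), each symbol matched 1 gene, and all 10 had an estimate in every group. Poly-A RNA was sequenced from the livers of 18 mice on the C57BL/6J background in 6 groups of 3 mice. The wild-type mice (WT), mice with a homozygous whole-body deletion of Gcn2 (Gcn2-/-) and mice with a homozygous whole-body deletion of Atf4 (Atf4-/-) each received 8 once-a-day intraperitoneal injections of either asparaginase (ASNase, 3 IU per gram of body weight), a drug that depletes blood asparagine and glutamine, or the same volume of phosphate buffered saline (PBS). Livers were taken 7.5 h after the last injection. GCN2 is the kinase that senses amino acid shortage, and ATF4 is a transcription factor that acts downstream of it. The study asked how loss of either protein changes the liver's response to the drug. Ages were 8 to 16 weeks by 1 label and 8 to 12 weeks by another. Each group held both sexes: 1 of 3 mice was male in WT PBS, Gcn2-/- PBS and Gcn2-/- ASNase, and 2 of 3 were male in WT ASNase, Atf4-/- PBS and Atf4-/- ASNase.

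Hepatocytes make bile acids along 2 routes. In the classic route CYP7A1 carries out the first and rate-limiting hydroxylation of cholesterol, and CYP8B1 adds the hydroxyl group needed for cholic acid. In the alternative route CYP27A1 oxidises the sterol side chain first and CYP7B1 then hydroxylates the oxysterol. HSD3B7 and AKR1D1 modify the sterol rings, AMACR and ACOX2 act in peroxisomal shortening of the side chain, and SLC27A5 and BAAT activate the bile acid and join it to taurine or glycine.

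Every expression value is an FPKM, a fragment count scaled to the length of the transcript and to the size of the library, which Cuffdiff estimated once per group from 3 libraries, with a lower and an upper bound. No value of a single mouse was used, so no difference below has a replicate check or a p-value. FPKM is scaled to transcript length, so levels of different genes can be set side by side. A difference was called when either FPKM was over 3, the difference of log2(FPKM + 0.1) was over 1.5 in size and the 2 intervals did not overlap. The verbs rose and fell are kept for called differences. In these bulk samples fewer cells of a type and less RNA per cell cannot be told apart.

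The alleles could not be checked from gene-level values. Eif2ak4, the gene of GCN2, was between 2.19 and 3.14 FPKM in all 6 groups, and the study places its deletion in 1 exon. Atf4 was 32.3 and 29.3 FPKM in the Atf4-/- groups given PBS and ASNase and between 50.4 and 68.1 in the other groups, so groups are named as labelled. The tissue carried the markers of hepatocytes: Asgr1, a hepatocyte surface receptor, was between 357 and 451 FPKM in all groups and Hnf4a, a hepatocyte transcription factor, between 145 and 213. Other hepatocyte markers moved more. In Atf4-/- livers Apoa2 was 13637 FPKM with PBS and 3546 with ASNase, Fabp1 7629 and 46.6, and Tat 952 and 2013. Of 8 markers with an estimate in both groups, 6 were lower with ASNase and 2 higher in each knockout. The summed FPKM of 9 hepatocyte markers was between 33123 and 45900 in the PBS groups, 34121 in WT ASNase, 19088 in Gcn2-/- ASNase and 11115 in Atf4-/- ASNase, and Serpina1c in this list had no estimate in the PBS groups. Markers of other tissues also moved with the groups. The sum over 8 skeletal muscle markers was 807 and 1158 FPKM in WT PBS and WT ASNase, with 5.78 and 8.85 for Gcn2-/- and 65.0 and 143 for Atf4-/- livers, PBS before ASNase. The sum over 4 lung markers was 132 in WT PBS and at most 2.05 elsewhere, and the sum over 4 pancreatic acinar markers was 266 in Atf4-/- ASNase, 38.5 in WT ASNase and at most 2.41 elsewhere. Cholangiocyte markers (6 genes) summed to between 20.1 and 39.9 FPKM, ileal markers (4 genes) to at most 12.5 and adrenal cortex markers (4 genes) to at most 8.60. Of the ileal markers, Fgf15, the intestinal hormone that represses bile acid synthesis in liver, was listed at 0 in all groups. The part of these other tissues in the differences between groups was not tested.

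The clearest pattern was in Cyp8b1. The gene has a single exon on the minus strand of chromosome 9 (ENSMUSG00000050445, GRCm38, chr9:121914356-121916305). In the 5′ to 3′ direction its RefSeq promoter (GRCm38.p6, chr9:121916256-121916555, minus strand, 250 bases before to 50 bases after the start) is printed below together with that of Akr1d1 (ENSMUSG00000038641, chr6:37530173-37568815, plus strand; promoter chr6:37529923-37530222), because both genes fell after ASNase in Atf4-/- livers. Capitals mark matches to the searched motifs.
Cyp8b1: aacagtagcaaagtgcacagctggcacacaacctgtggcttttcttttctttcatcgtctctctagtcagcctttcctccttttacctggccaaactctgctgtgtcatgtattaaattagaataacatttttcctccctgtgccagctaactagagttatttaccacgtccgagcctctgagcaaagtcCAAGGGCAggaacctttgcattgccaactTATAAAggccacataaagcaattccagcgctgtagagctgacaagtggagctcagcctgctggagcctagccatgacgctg
Akr1d1: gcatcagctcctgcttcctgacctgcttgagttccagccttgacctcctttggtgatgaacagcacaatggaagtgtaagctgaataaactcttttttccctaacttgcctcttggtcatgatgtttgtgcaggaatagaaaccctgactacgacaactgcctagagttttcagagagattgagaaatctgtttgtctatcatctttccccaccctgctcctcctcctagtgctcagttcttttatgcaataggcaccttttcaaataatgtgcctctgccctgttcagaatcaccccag
Both strands were searched for TGATGNAAT (a C/EBP-ATF element), CAAGGNCA (LRH-1) and TATAAA, and for the longer HNF4 direct-repeat and HNF1 motifs. The Cyp8b1 promoter held CAAGGGCA from 60 to 53 bases before the start and TATAAA from 31 to 26 bases before it, both on the gene's own strand and not overlapping. Of 32851 mouse promoters of the same length, 6.71% held the LRH-1 motif and 13.6% TATAAA. Akr1d1 held none of the 5 motifs in this window. Promoters were matched for 5 of the 10 genes (Cyp8b1, Akr1d1, Cyp27a1, Hsd3b7 and Acox2), and Cyp8b1 was the only one of them with a match to any of the motifs. The C/EBP-ATF element was present in 0.965% of all promoters, the HNF4 repeat in 0.381% and the HNF1 motif in 0.00913%. These matches describe letters in the window and say nothing of binding.

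In the classic route, Cyp8b1 was 201 FPKM in WT PBS (interval 95.9 to 306) and 190.5 in WT ASNase (101 to 280). It was 58.2 in Gcn2-/- PBS (33.2 to 83.2) and 56.3 in Atf4-/- PBS (31.1 to 81.6). After ASNase it was 8.22 in Gcn2-/- (4.05 to 12.4) and 1.81 in Atf4-/- livers (0.670 to 2.94). The highest group thus stood 111-fold above the lowest. The groups formed 4 separate levels: both WT groups, both PBS-treated knockout groups, Gcn2-/- ASNase and Atf4-/- ASNase, with overlap only between the 2 WT groups and between the 2 PBS-treated knockouts, and 13 of the 15 pairs of groups did not overlap.

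Cyp7a1 (ENSMUSG00000028240, chr4:6265612-6275633) was 124 FPKM in WT livers given PBS and 187 in those given ASNase. The corresponding values were 75.8 and 35.3 for Gcn2-/- and 154 and 32.5 for Atf4-/- livers. All 6 lower bounds were 0, and the upper bounds, between 114 and 667, lay 252% to 365% of the value above it, against a median of 51.3% to 54.2% over all genes above 3 FPKM. None of the 15 pairs of groups was separate, so a difference in the rate-limiting enzyme was not detectable with intervals of this width. The lowest values were those of the ASNase-treated knockout groups.

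In the alternative route, Cyp27a1 (ENSMUSG00000026170, chr1:74713574-74737892) spanned a 3.13-fold range. It was 257 FPKM in WT livers given PBS (131 to 383) and 214 in those given ASNase (111 to 317). With PBS and ASNase it was 188 (101 to 276) and 151 (79.1 to 223) for Gcn2-/-, and 225 (117 to 333) and 82.2 (46.3 to 118) for Atf4-/- livers. Of 15 pairs of groups, 1 did not overlap, Atf4-/- ASNase lying below WT PBS.

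Cyp7b1 (ENSMUSG00000039519, chr3:18071950-18243338) was the other enzyme that separated many groups. WT livers had 43.7 FPKM with PBS (16.5 to 70.9) and 40.1 with ASNase (17.8 to 62.3). Gcn2-/- livers had 16.2 (8.32 to 24.1) and 5.06 (2.28 to 7.84), and Atf4-/- livers 100.5 (41.0 to 160.0) and 28.4 (13.8 to 43.0). In order, Atf4-/- PBS, WT PBS, WT ASNase, Atf4-/- ASNase and Gcn2-/- PBS each overlapped the next, and Gcn2-/- ASNase lay below all 5 other groups without overlap. Of 15 pairs, 6 did not overlap, these 5 and Atf4-/- PBS against Gcn2-/- PBS.

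Of the ring-modifying enzymes, Akr1d1, which reduces the double bond of the sterol ring, was 88.9 FPKM in WT livers given PBS (38.7 to 139) and 86.3 in those given ASNase (35.9 to 137). For Gcn2-/- it was 91.2 (38.6 to 144) and 50.4 (16.5 to 84.3), and for Atf4-/- 76.2 (26.4 to 126) and 13.9 (1.95 to 25.9). The Atf4-/- ASNase value was separate from every group other than Gcn2-/- ASNase, and no other pair was separate. Hsd3b7, the dehydrogenase that precedes AKR1D1 (ENSMUSG00000042289, chr7:127800604-127803802), was 389.7 and 261 FPKM for WT, 284 and 120.1 for Gcn2-/-, and 335 and 60.6 for Atf4-/- livers, PBS before ASNase. Its intervals overlapped in all 15 pairs, the Atf4-/- ASNase interval (2.95 to 118) included. Exons of 2 other annotated genes, neither listed in the table, cover much of Hsd3b7: 9430064I24Rik on the opposite strand shares 62.4% of its exon bases and Gm49388 on the same strand 62.0%. Reads of these genes and of Hsd3b7 cannot be told apart in these values. No other of the 10 genes shares exon bases with another gene.

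Of the side-chain enzymes, the racemase gene Amacr (ENSMUSG00000022244, chr15:10981756-10996626) was 59.4 FPKM in WT livers given PBS (33.9 to 85.0) and 54.8 in those given ASNase (31.5 to 78.1). It was 72.5 (40.6 to 104) and 33.2 (19.5 to 46.9) for Gcn2-/-, and 63.6 (36.2 to 91.0) and 17.5 (9.64 to 25.4) for Atf4-/- livers. As for Akr1d1, Atf4-/- ASNase was separate from all groups but Gcn2-/- ASNase. The peroxisomal oxidase gene Acox2 (ENSMUSG00000021751, chr14:8225511-8259353) was between 86.0 and 105 FPKM in 5 groups and 175 in Atf4-/- ASNase (30.9 to 320.0), with no pair separate.

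By group value the conjugation gene Slc27a5 stood above Baat in all groups, but the intervals of these genes overlapped in every group. Slc27a5 (ENSMUSG00000030382, chr7:12988346-12998192), the bile acyl-CoA synthetase, had the highest group value of the 10 genes in all groups. It was 673 and 586 FPKM for WT, 696 and 332 for Gcn2-/-, and 519 and 209 for Atf4-/-, PBS before ASNase. Its intervals were wide, for example 102 to 1244 in WT PBS and 65.0 to 353 in Atf4-/- ASNase, and overlapped in all pairs. Baat (ENSMUSG00000039653, chr4:49489422-49506557), which forms the amide bond, was the steadiest, with 163 and 129 FPKM for WT, 160.3 and 159 for Gcn2-/-, and 155 and 195 for Atf4-/-. Its highest value was 1.51 times its lowest, in Atf4-/- ASNase and WT ASNase, and no pair was separate. Summed over the 10 genes, expression was 2106 and 1839 FPKM for WT, 1729 and 997 for Gcn2-/-, and 1776 and 816 for Atf4-/-. These sums have no interval. Slc27a5 and Hsd3b7, neither with a separate pair, had the highest values in each PBS group and so weigh most in those sums.

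**Figure D1:**
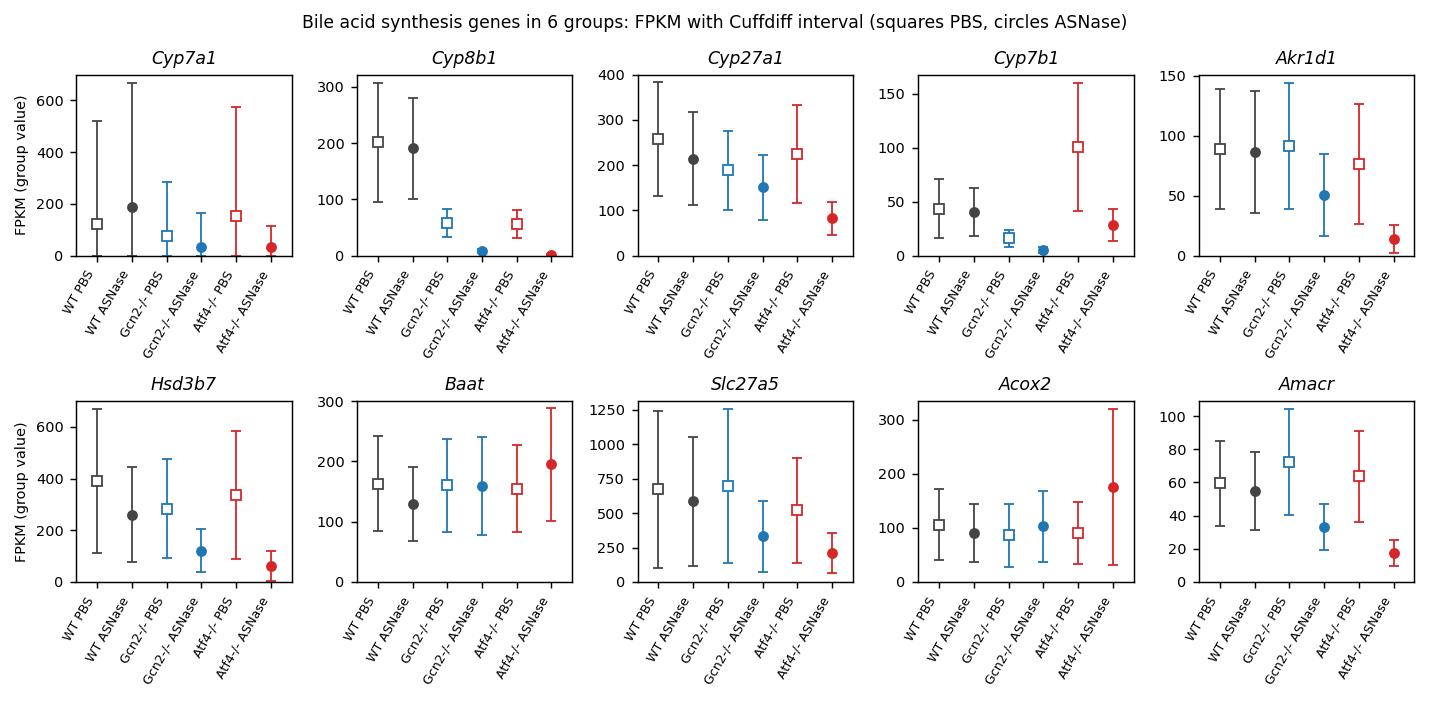
FPKM (vertical axis, its own scale for each gene, starting at 0) of the 10 bile acid synthesis genes in the 6 groups; squares are PBS, circles ASNase, and bars run between the Cuffdiff bounds of each group value. Cyp8b1 falls from 201 FPKM in WT PBS to 1.81 in Atf4-/- ASNase, Baat stays between 129 and 195, and every Cyp7a1 bar reaches 0.

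The basal effect of each deletion was read from the PBS groups. In Gcn2-/- livers Cyp8b1 fell by 1.79 on the log2 scale (combined error 0.98), that is 3.45-fold below WT. It was the only 1 of the 10 genes called, where 0.65% of 8920 eligible genes were called lower. The Cyp7b1 difference was -1.43 (combined error 1.14), with overlapping intervals, and those of the other 8 genes were between -0.71 and 0.29. In Atf4-/- livers Cyp8b1 fell by 1.83 (combined error 0.99), that is 3.57-fold, and again no other gene of the 10 was called, where 0.763% of 9039 genes were called lower. Cyp7b1 was 1.20 higher in Atf4-/- than in WT with overlapping intervals. Both contrasts share the WT PBS group, so they are not independent. The summed FPKM of 12 acute phase genes, which liver makes more of in inflammation, was 8185 in WT PBS, 26789 in Gcn2-/- PBS and 24488 in Atf4-/- PBS, with 2 of 11 and 3 of 12 eligible genes called higher, against 0.392% and 0.354% of all eligible genes, and its part in the Cyp8b1 difference was not tested.

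Between the PBS-treated knockouts 1 gene of the 10 was called: Cyp7b1 was 6.21-fold higher in Atf4-/- than in Gcn2-/- livers (log2 difference 2.63), where 0.544% of 9015 genes were called higher. It stood at rank 35 from the top. Cyp8b1 differed by -0.05 between the same groups.

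In WT livers ASNase left the 10 genes without a called difference. Log2 differences from PBS were between -0.58 for Hsd3b7 and 0.59 for Cyp7a1, with a median of -0.16. All but Cyp7a1, that is 9 of 10, were below 0, where 51% of all eligible genes were, and 0.881% of 9084 eligible genes were called in either direction. Cyp8b1 differed by -0.08 with a combined error of 1.01. A call needed a log2 difference over 1.5 in size and separate intervals. A change of up to 1.5 in either direction could therefore not be called.

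In Gcn2-/- livers 2 of the 10 genes fell after ASNase, where 2.13% of 9218 eligible genes were called lower. Cyp8b1 fell by 2.81 on the log2 scale (combined error 0.95), that is 7.08-fold. Cyp7b1 fell by 1.66 (combined error 1.04), that is 3.20-fold. Amacr differed by -1.12, more than its combined error of 0.87, with overlapping intervals and under the limit of 1.5. The other differences were between -1.24 for Hsd3b7 and 0.25 for Acox2. The median over the 10 genes was -1.08, against 0.02 over all eligible genes, and 9 of the 10 were below 0, against 48.5% of all eligible genes.

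In Atf4-/- livers 3 of the 10 genes fell after ASNase, where 4.63% of 9485 eligible genes were called lower. Cyp8b1 fell by 4.89 on the log2 scale (combined error 1.07), that is 31.2-fold, and stood at rank 40 from the lowest difference. Akr1d1 fell 5.48-fold (log2 difference -2.44, combined error 1.55) and Amacr 3.63-fold (-1.85, combined error 0.90). Hsd3b7 (-2.47), Cyp7b1 (-1.82) and Cyp27a1 (-1.45) each differed by more than their combined error with overlapping intervals, and for Cyp7b1 the overlap was narrow, from 41.0 to 43.0 FPKM. Cyp7a1 differed by -2.25 and Slc27a5 by -1.31, both within their error. Baat and Acox2 were the 2 genes above 0, at 0.33 and 0.96. The median over the 10 genes was -1.84, against 0.08 over all eligible genes, and 8 of the 10 were below 0, against 46.2%.

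**Figure D2:**
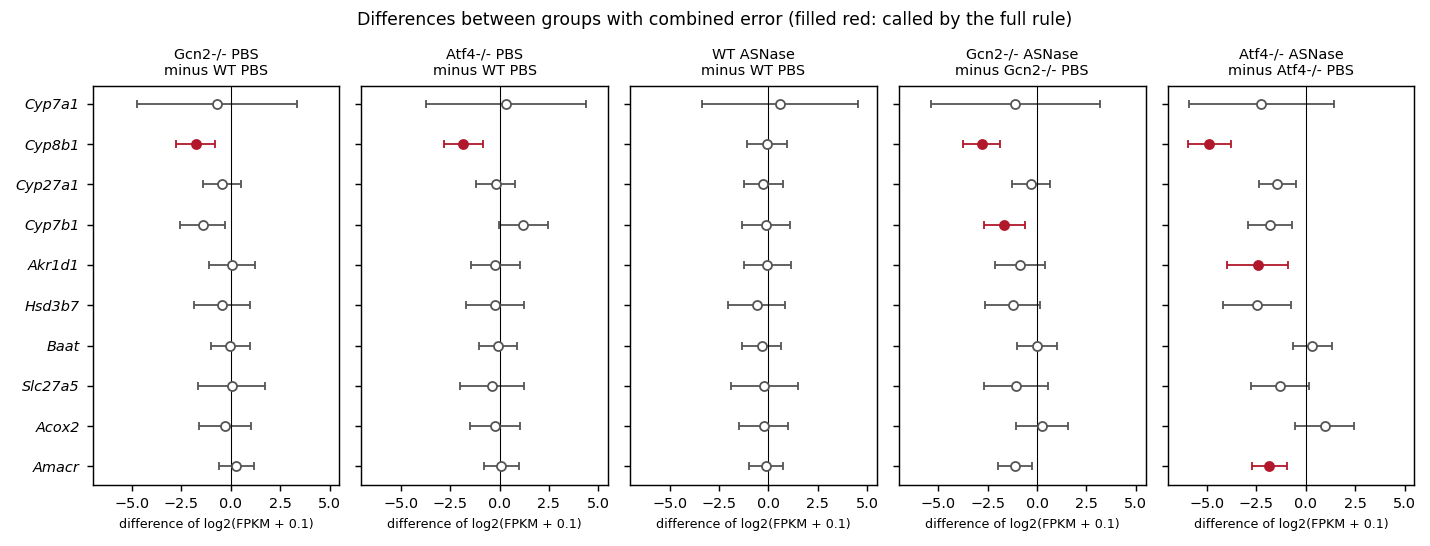
Difference of log2(FPKM + 0.1) (horizontal axis) for the 10 genes in 2 basal comparisons and in ASNase minus PBS within each strain; bars are the combined error of each pair of group values and filled red points are called. Cyp8b1 is called in 4 of the 5 panels, from -1.79 to -4.89, and no gene is called in WT livers given ASNase.

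The values of the ASNase-treated groups were also compared across strains. Against WT ASNase, Cyp8b1 was 23.2-fold lower in Gcn2-/- (log2 difference -4.52) and Cyp7b1 7.91-fold lower (-2.96), and these 2 of 10 genes were called where 2.59% of 9423 genes were called lower. In Atf4-/- ASNase, Cyp8b1 was 105-fold lower than in WT ASNase (-6.64), the rank 11 difference from the bottom among 9577 eligible genes. Akr1d1 was 6.20-fold and Amacr 3.12-fold lower, so that 3 of 10 were called lower, where 5.66% of all eligible genes were. Between Atf4-/- and Gcn2-/- livers given ASNase 2 enzymes were called in opposite directions: Cyp8b1 was 4.55-fold lower in Atf4-/- (2.29% of 9355 genes called lower) and Cyp7b1 5.61-fold higher (0.898% called higher).

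The difference between the strains' responses was set beside the combined error of the 4 values it is made from. The Cyp8b1 response was more negative in Gcn2-/- than in WT by 2.73 on the log2 scale (difference -2.73, combined error 1.39), the only 1 of 10 beyond its error. Between Atf4-/- and WT 4 of 10 responses were beyond it: Cyp8b1 (-4.81, error 1.48), Akr1d1 (-2.40, error 1.94), Amacr (-1.74, error 1.25) and Cyp7b1 (-1.70, error 1.65). Between Atf4-/- and Gcn2-/- only Cyp8b1 was (-2.08, error 1.44). For Akr1d1, Amacr and Cyp7b1 a difference between the 2 knockouts' responses was therefore not shown.

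Beside the Cyp7b1 values stand those of genes that differ between male and female mouse liver, as Cyp7b1 itself does. Of 8 male-biased genes, the 4 with the largest called differences were Hsd3b5, Cyp4a12a, Slco1a1 and Elovl3. They were 44.3, 63.3, 103 and 54.0 FPKM in WT PBS, 13.1, 11.7, 32.1 and 2.84 in Gcn2-/- PBS, and 105, 42.0, 124 and 32.7 in Atf4-/- PBS. After ASNase they were 0.180, 1.25, 1.30 and 0.111 FPKM in Gcn2-/- and 0.167, 0.106, 0.945 and 0.410 in Atf4-/- livers. All 4 were thus lower in Gcn2-/- PBS than in WT PBS, by a called difference for Elovl3, while in Atf4-/- PBS 2 were above and 2 below their WT PBS values with no call. Over the whole list, 5 of 8 genes had their highest value in Atf4-/- PBS, as Cyp7b1 did, 2 in WT PBS and 1 in Gcn2-/- PBS. The summed FPKM of the list was 1657 and 1147 in WT and Gcn2-/- livers given PBS and 2675 in Atf4-/- livers given PBS.

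Among 8 female-biased genes, 3 had their highest value in Atf4-/- PBS. Cyp3a16 and Cyp3a41a, the pair called in a basal comparison, are named after their values were seen. Cyp3a16 was 0.322 FPKM in WT PBS, 0.200 in Gcn2-/- PBS and 72.2 in Atf4-/- PBS, and Cyp3a41a 1.09, 0.243 and 20.8, although the last group held 2 males of 3 mice. These 2 of 8 genes rose in Atf4-/- PBS, where 0.354% of all eligible genes were called higher. After ASNase 3 of 6 eligible male-biased and 2 of 6 eligible female-biased genes fell in Gcn2-/- livers, against 2.13% of all eligible genes. In Atf4-/- livers 7 of 8 and 4 of 8 fell, against 4.63%. In WT livers 1 of 6 eligible female-biased genes and no male-biased gene fell, where 0.881% of all eligible genes were called in either direction. A1bg and Sult3a1 were also named after their values were seen. After ASNase in Atf4-/- livers they went from 42.7 to 0.0922 FPKM and from 64.7 to 0.571. Lower values after ASNase were not confined to Atf4-/- livers. Sult3a1 was 30.2 FPKM with PBS and 1.73 with ASNase in WT livers, and 13.5 and 3.93 in Gcn2-/- livers. A1bg was 32.0 and 22.1 in WT livers and 62.1 and 10.1 in Gcn2-/- livers.

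The Y-linked gene Ddx3y was 5.62, 6.20 and 5.88 FPKM in the groups with 1 male and 11.6, 11.4 and 14.2 in those with 2. Among the 9 comparisons, 3 called Cyp7b1 differences lie between groups that differ by 1 male. These are Atf4-/- PBS against Gcn2-/- PBS, Atf4-/- ASNase against Gcn2-/- ASNase, and Gcn2-/- ASNase against WT ASNase. The same holds for all members in Atf4-/- PBS against WT PBS, where Cyp8b1 fell, and in WT ASNase against WT PBS. In these 5 comparisons the number of males and the genotype or treatment cannot be told apart. The other 4 comparisons, among them ASNase against PBS in Gcn2-/- and in Atf4-/- livers, were between groups with equal numbers of males. Outside the 9 comparisons, the separate Cyp7b1 pair of Atf4-/- PBS and Gcn2-/- ASNase also differs by 1 male.

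**Figure D3:**
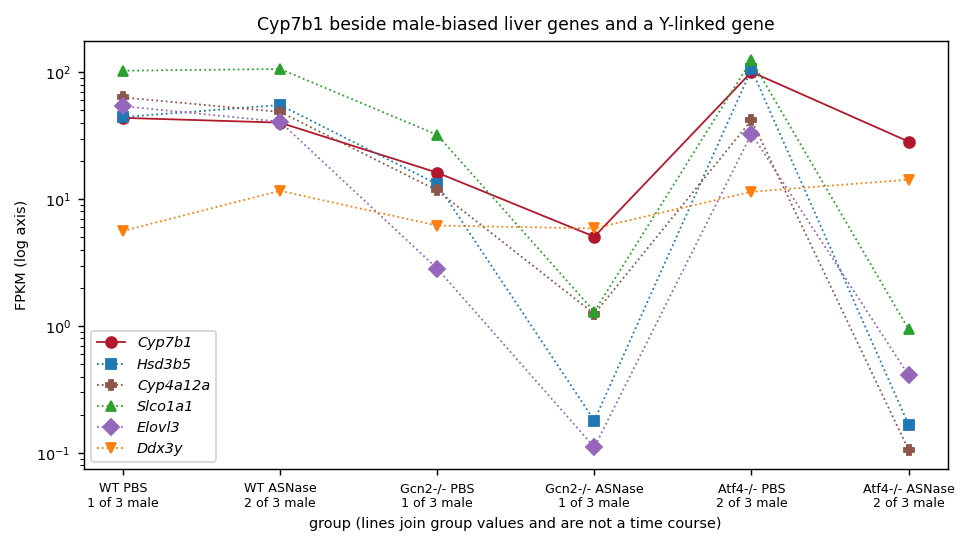
FPKM on a log axis of Cyp7b1, of the 4 male-biased liver genes with the largest called differences (Hsd3b5, Cyp4a12a, Slco1a1, Elovl3) and of the Y-linked Ddx3y in the 6 groups, with the number of male mice under each group; lines join group values and are no time course. Cyp7b1, Hsd3b5 and Slco1a1 are highest in Atf4-/- PBS and Cyp4a12a and Elovl3 in WT PBS, while Ddx3y is at or above 11.4 in the groups with 2 males.

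A list of 11 other bile acid synthesis genes, of which 9 were eligible, had no called member in the basal comparisons or in WT livers given ASNase. Of all eligible genes, 0.65% and 0.763% were called lower in Gcn2-/- and Atf4-/- PBS, and 0.881% in either direction in WT livers. No call among 9 genes therefore says little. Acaa1b is a peroxisomal thiolase gene of this list, but its role in bile acid synthesis was not examined. Its reads may be split with its close copy Acaa1a. Acaa1b fell from 584 FPKM (239 to 929) to 29.3 (14.8 to 43.8) in Gcn2-/- livers, 19.9-fold. In Atf4-/- livers it fell from 277 to 1.55, 179-fold. Cyp39a1, an oxysterol hydroxylase gene, rose in Atf4-/- livers from 5.47 FPKM (3.03 to 7.91) to 24.0 (11.7 to 36.3), 4.39-fold, where 2.74% of all eligible genes were called higher. In WT livers it was 11.5 FPKM with PBS (6.77 to 16.3) and 23.4 with ASNase (13.5 to 33.2), not called. The Atf4-/- ASNase value was thus near that of WT ASNase. Gcn2-/- livers had 11.8 and 14.8. The remaining eligible genes were not called in either knockout. Acaa1b was the only 1 of 9 called lower in each knockout, where 2.13% (Gcn2-/-) and 4.63% (Atf4-/-) of all eligible genes were. This list had a median log2 difference of -0.20 for WT, -0.70 for Gcn2-/- and -1.06 for Atf4-/-.

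Of 18 regulators of the pathway, none was called in the basal comparisons or in WT livers given ASNase. Few genes of any kind were called there: 0.65% and 0.763% of all eligible genes lower in Gcn2-/- and Atf4-/- PBS, 0.392% and 0.354% higher. In WT livers 0.881% were called in either direction. An absence of calls in so short a list therefore says little. Nr0b2, which encodes the corepressor SHP that restrains Cyp7a1 and Cyp8b1, fell after ASNase from 32.3 to 11.1 FPKM in Gcn2-/- livers (log2 difference -1.54) and from 24.3 to 1.03 in Atf4-/- livers (-4.43, 23.5-fold). Nr1d1, the gene of the clock repressor REV-ERB alpha, fell in Gcn2-/- livers from 46.6 to 9.33 FPKM (-2.31). In Gcn2-/- livers 2 of 18 were thus called lower after ASNase, where 2.13% of all eligible genes were. In Atf4-/- livers 1 of 18 was, near the 4.63% of all eligible genes. The other 16 regulators were not called in any of the 5 comparisons. The list's median log2 difference after ASNase was 0.20 for WT, 0.01 for Gcn2-/- and -0.55 for Atf4-/-. In the knockouts given ASNase the acute phase genes summed to 47893 FPKM (Gcn2-/-, with 5 of the 12 genes lacking an estimate) and 55629 (Atf4-/-, with 3 lacking one), against 7144 in WT ASNase, and the hepatocyte marker Fabp1 fell in Atf4-/- livers from 7629 to 46.6 FPKM. Their part in the lower values of the bile acid genes was not tested.

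**Figure D4:**
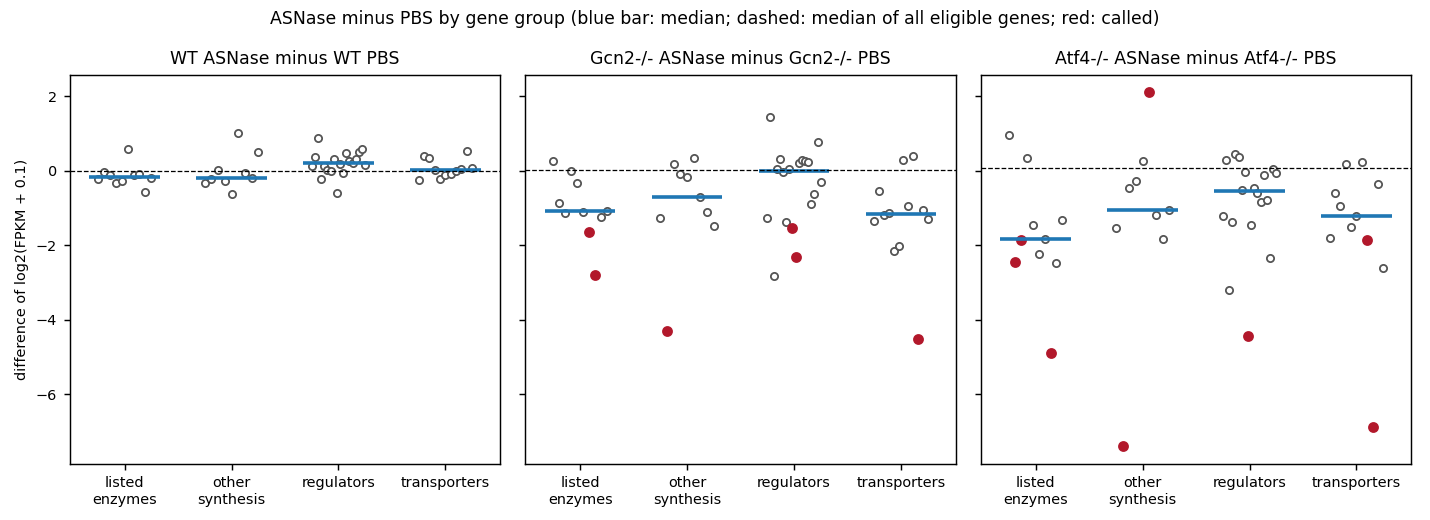
ASNase minus PBS difference of log2(FPKM + 0.1) (vertical axis) for each eligible gene of 4 lists in WT, Gcn2-/- and Atf4-/- livers; points are genes, red points are called, blue bars are list medians and the dashed line is the median of all eligible genes. The 10 enzymes have a median of -0.16 for WT, -1.08 for Gcn2-/- and -1.84 for Atf4-/-, and red points appear in the 2 knockouts and not in WT.

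For each enzyme the genes with the most similar profile were sought by the root mean square distance between mean-centred log2 values over the 6 groups, among 10172 genes. As a description, the nearest to Cyp8b1 were Acot1 (distance 0.67), Cyp4a12b (0.68) and Gm13775 (0.71), and to Cyp7b1 Nox4 (0.52), Meg3 (0.54) and Gm13152 (0.64). The distance was not scaled to a gene's range. It therefore tends to be larger for wide profiles (Cyp8b1 111-fold, Cyp7b1 19.8-fold) than for flat ones (Baat 1.51-fold). Distances of different enzymes are thus not comparable as closeness of match. Nearest to Akr1d1 were Acaa2 (0.07), Oaf (0.08) and Etnk2 (0.10), and to Amacr Arhgap18 (0.04), Hsd17b11 (0.06) and Hagh (0.07). Nearest to Cyp7a1 were Sord (0.15), Aox1 (0.26) and Slc15a5 (0.27). Closest to Hsd3b7 were 0610011F06Rik (0.14), Hacl1 (0.14) and Ces1c (0.15), and to Slc27a5 Acadl (0.07), Mdh1 (0.07) and Sec14l2 (0.08). Cyp27a1 lay closest to Lcp1 (0.06), Rap2a (0.07) and Glud1 (0.07). Distances were small for the flat profiles of Baat (Diablo 0.04, Hmgn1 0.04, Pop5 0.05) and Acox2 (Myst2 0.06, Manbal 0.07, Sf3a2 0.07). None of these distances has a replicate check.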

How the data were processed

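Liver poly-A RNA of 18 mice was sequenced by the study. The authors aligned reads to mm10 with TopHat and estimated expression with Cuffdiff (the submitters' processing notes give no versions). The table the authors deposited holds FPKM, 1 value for each of the 6 groups from 3 libraries together, with a lower bound, an upper bound and a status. Bounds reach no lower than 0, and their confidence level is not given in the sources used here. Each of the 18 columns of values and bounds was assigned to its group by name, leaving 0 outside. The table carries no counts, so depth is unknown from it and precision was read from the bounds. Cuffdiff flagged 160 values as not OK, none of them in the 10 genes.

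Groups came from the sample labels. Genes were compared on log2(FPKM + 0.1), a scale that understates changes of low genes. Eligible genes had status OK and a value above 0 in both groups and more than 3 FPKM in at least 1, and a gene was called when the log2 difference was also over 1.5 in size and the intervals did not overlap. The combined error is the root of the summed squared log2 errors of the values, each taken as half-width of the interval divided by the FPKM plus pseudocount on the log2 scale, and is too small where a lower bound was set to 0 (Cyp7a1). No test with a p-value was possible with 1 value per group. The calling rule was also run on simulated data with large known changes and noise set from the intervals. That run does not cover differences near the limit of 1.5 or the variation between mice. Comparisons that share a group are not independent.

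All 10 enzymes are named. From the lists of other synthesis genes, regulators, transporters and male-biased genes, those called in at least 1 of 5 comparisons (2 basal, 3 ASNase) were named. At most 4 per list were named, the largest first. Of the female-biased list Cyp3a16, Cyp3a41a, A1bg and Sult3a1 were named after their values were seen. Acute phase genes were given as sums and counts, and marker lists as sums with a few marker genes named. The members and lists were chosen with earlier results of these data known. Gene positions and exon overlaps are from GENCODE (GRCm38), promoters from RefSeq (GRCm38.p6). Whether the authors' counting used strand is not given in the sources used here. Alternatives were pseudocounts of 1 and 0.01, no FPKM limit, a log2 limit of 1, median-ratio scaling of the groups and separation by the combined error. Python 3.11.15, numpy 2.4.6, pandas 2.3.3 and matplotlib 3.10.9 were used.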

Additional observations from a re-analysis of the deposited data

How the results depend on the processing

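The count of the 10 genes called was recomputed for 9 comparisons under 6 alternatives. Of 54 counts, 53 stayed within 1.5 times the reported one. The counts without an FPKM limit could not move, because all 10 genes were already eligible in every comparison. The exception was ASNase minus PBS in Atf4-/- livers when the combined error replaced the interval bounds. There 5 genes in place of 3 were called, the additions being Cyp7b1 and Hsd3b7. The same replacement changed other counts within the 1.5 times. Atf4-/- ASNase minus WT ASNase went from 3 to 4, and Atf4-/- ASNase minus Gcn2-/- ASNase from 2 to 3. No log2 difference of the 10 genes changed sign after scaling, and a pseudocount added to both values cannot change a sign. The largest shift was 0.55 with a pseudocount of 1, 0.07 with 0.01 and 0.04 after scaling. No paired analysis was possible because the table holds 1 value per group, and leaving out single mice and a replicate block were not run for the same reason. For Cyp7a1 and Hsd3b7 the width of the intervals is the limit, since their largest differences were over 1.5 with overlapping intervals.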

Other observations

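Of 14 bile acid transporters, none was called in the basal comparisons or in WT livers given ASNase. Of all eligible genes, 0.65% and 0.763% were called lower in Gcn2-/- and Atf4-/- PBS, and 0.881% in either direction in WT livers. No call in so short a list therefore says little. After ASNase 1 of 12 eligible transporters was called lower in Gcn2-/- livers, against 2.13% of all eligible genes. In Atf4-/- livers 2 of 11 were, against 4.63%. Slco1a1, a sinusoidal organic anion carrier that is male-biased in mouse liver, fell after ASNase from 32.1 to 1.30 FPKM in Gcn2-/- livers and from 124 to 0.945 in Atf4-/- livers (log2 differences -4.52 and -6.90). Slc10a1, the main sodium-dependent carrier for bile acid uptake, fell from 384 to 106 FPKM in Atf4-/- livers (-1.85). For the list the median log2 difference after ASNase was 0.01 for WT, -1.16 for Gcn2-/- and -1.22 for Atf4-/-, over 11 to 12 eligible genes.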
